A study of Mus musculus with 20 samples.

Results

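Transcripts of 10 glycolytic enzymes were measured by RNA sequencing in epithelial cells sorted from the crypts of the mouse small intestine. The enzymes were the hexokinases Hk1 and Hk2, the phosphofructokinases Pfkp and Pfkl, the aldolase Aldoa, Gapdh, Pgk1, Bpgm, the pyruvate kinase Pkm and the lactate dehydrogenase Ldha. They were picked by gene symbol, and all 10 were found among the 11779 entries of the GFP-low count table and the 11746 entries of the GFP-high count table. The mice were 8-week-old C57BL/6J animals, 5 of them Itgb7-/- (knockout, KO) and 5 Itgb7+/+ (wild type, WT), and all carried an Lgr5-GFP reporter. Itgb7 encodes an integrin subunit of gut-homing lymphocytes, and Lgr5 is a receptor of crypt stem cells. Each mouse gave a GFP-low library, labelled as transit-amplifying cells, and a GFP-high library, labelled as stem cells. The 20 libraries therefore formed 4 groups of 5, namely KO GFP-low, WT GFP-low, KO GFP-high and WT GFP-high. Sorted cells were viable, carried EpCAM and lacked the markers CD45, CD31 and TER119 of leukocytes, endothelium and erythroid cells. Transcripts of Itgb7 are not analysed here, so no check of the genotype on its own transcript is given, and the labels do not state how the Itgb7 allele was made.

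Glycolysis splits glucose into pyruvate. Hexokinase traps glucose as glucose phosphate, phosphofructokinase commits the sugar to breakdown, and aldolase splits it into trioses. Gapdh and Pgk1 carry the trioses through the first energy-yielding steps. Bpgm diverts the bisphosphoglycerate that Pgk1 uses into another form of it, a route best known from red blood cells. Pyruvate kinase makes pyruvate, and lactate dehydrogenase turns it into lactate and regenerates NAD+. In the crypt the pathway is studied because stem cells, Paneth cells and differentiating cells are thought to balance glycolysis and mitochondrial respiration differently.

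Library totals ran from 20900404 to 27838392 counts in GFP-low and from 20986069 to 27083283 counts in GFP-high libraries. Levels are given as CPM (counts relative to a common library size) scaled with TMM factors over all 20 libraries and the 11284 genes held by both tables. The 10 stem cell markers listed summed to 633 to 1055 CPM in KO GFP-low and 560 to 1074 CPM in WT GFP-low libraries, against 4045 to 4928 CPM in KO GFP-high and 3849 to 5271 CPM in WT GFP-high libraries, so the stem label of the GFP-high cells had its markers. The GFP-low cells, labelled as transit-amplifying, also held markers of mature cells. GFP-high libraries held such markers too, and the Paneth cell sums of GFP-low and GFP-high libraries overlapped in KO mice. The 12 Paneth cell markers summed to 25690 to 129500 CPM in KO GFP-low and 61410 to 267900 CPM in WT GFP-low libraries, against 18570 to 46170 CPM in KO GFP-high and 15340 to 61140 CPM in WT GFP-high libraries. The 10 goblet cell markers summed to 25770 to 56060 CPM in KO GFP-low and 30630 to 76440 CPM in WT GFP-low libraries, against 2457 to 4668 CPM in KO GFP-high and 2346 to 5971 CPM in WT GFP-high libraries. For 9 enterocyte markers the sums were 1411 to 2485 CPM in KO GFP-low and 2019 to 3898 CPM in WT GFP-low libraries, against 245 to 523 CPM in KO GFP-high and 275 to 425 CPM in WT GFP-high libraries. For 9 enteroendocrine markers the sums were 973 to 2242 CPM in KO GFP-low and 1103 to 2644 CPM in WT GFP-low libraries, against 122 to 189 CPM in KO GFP-high and 129 to 564 CPM in WT GFP-high libraries. For 8 tuft cell markers they were 43.3 to 119 CPM in KO GFP-low and 21.5 to 164 CPM in WT GFP-low libraries, against 10.1 to 17.2 CPM in KO GFP-high and 13.9 to 32.4 CPM in WT GFP-high libraries. The 6 proliferation markers summed to 585 to 796 CPM in KO GFP-low and 489 to 742 CPM in WT GFP-low libraries, against 825 to 1074 CPM in KO GFP-high and 639 to 973 CPM in WT GFP-high libraries. These sums move with every difference between the populations given here, and their part in it was not tested. In such bulk samples, a change in the number of cells of a type and a change in RNA per cell cannot be told apart. Of 8 T cell markers listed, 3 were held by both tables. They summed to 5.38 to 36.3 CPM in KO GFP-low and 1.91 to 18.2 CPM in WT GFP-low libraries. In GFP-high libraries they summed to 4.98 to 38.6 CPM in KO and 1.66 to 19.9 CPM in WT mice. Of 6 myeloid markers 3 were held by both tables, among them Lyz2, which is also on the Paneth list. P-values measure the spread between these 5 mice per genotype. The main edgeR tests and the permutation tests between populations had no term for the mouse. They, and the interaction fit, treated the libraries of a mouse as independent.

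Compared per kilobase of merged exons, lactate dehydrogenase transcripts stood first in all 4 groups. Ldha reached 1178 ± 131 CPM per kilobase in KO GFP-low and 1129 ± 170 in WT GFP-low cells, against 493 ± 34.0 in KO GFP-high and 516 ± 77.0 in WT GFP-high cells (mean ± SD, n = 5). Gapdh came next with 407 ± 46.5 CPM per kilobase in KO GFP-low and 381 ± 52.4 in WT GFP-low cells, against 258 ± 31.6 in KO GFP-high and 251 ± 13.9 in WT GFP-high cells. The libraries of Ldha and Gapdh did not overlap in any group. In GFP-low cells Aldoa, Pgk1 and Pkm followed with means of 254, 197 and 173 CPM per kilobase in KO mice and 234, 180 and 167 in WT mice, and neighbours in that order overlapped. In GFP-high cells Pgk1 came before Aldoa and Pkm, with means of 160, 98.2 and 88.3 CPM per kilobase in KO mice and 148, 107 and 91.8 in WT mice. There the Pgk1 libraries lay above the Aldoa libraries in KO mice and overlapped with them in WT mice, and Aldoa and Pkm overlapped in both genotypes.

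Hk2, Bpgm, Pfkl, Pfkp and Hk1 had lower means per kilobase than these 5 enzymes in every group. Hk2 had means of 21.04 CPM per kilobase in KO GFP-low and 22.6 in WT GFP-low cells, against 23.4 in KO GFP-high and 24.6 in WT GFP-high cells. Bpgm lay at 17.9 and 16.1 CPM per kilobase in KO and WT GFP-low cells, overlapping with Hk2, and at 10.7 and 9.49 in KO and WT GFP-high cells, where it lay below every Hk2 library. Pfkl averaged 8.08 CPM per kilobase in KO GFP-low and 7.72 in WT GFP-low cells, against 6.53 in KO GFP-high and 6.88 in WT GFP-high cells. Pfkp and Pfkl overlapped in GFP-low cells, where Pfkp averaged 6.45 CPM per kilobase in KO and 6.41 in WT mice. In GFP-high cells every Pfkp library lay below every Pfkl library, with Pfkp means of 1.28 in KO and 1.19 in WT mice. Hk1 was lowest in every group with at most 1.42 CPM per kilobase in any library. Using the longest transcript in place of merged exons kept Ldha, Gapdh, Pfkl, Pfkp and Hk1 in the same ranks and reordered some of the others. It raised the levels of 7 of the 10 by over 1.5 times, with KO GFP-low means of 2148 CPM per kilobase for Ldha, 476.5 for Aldoa, 356 for Pkm and 2.08 for Hk1, so these levels hold only for the length used.

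**Figure D1:**
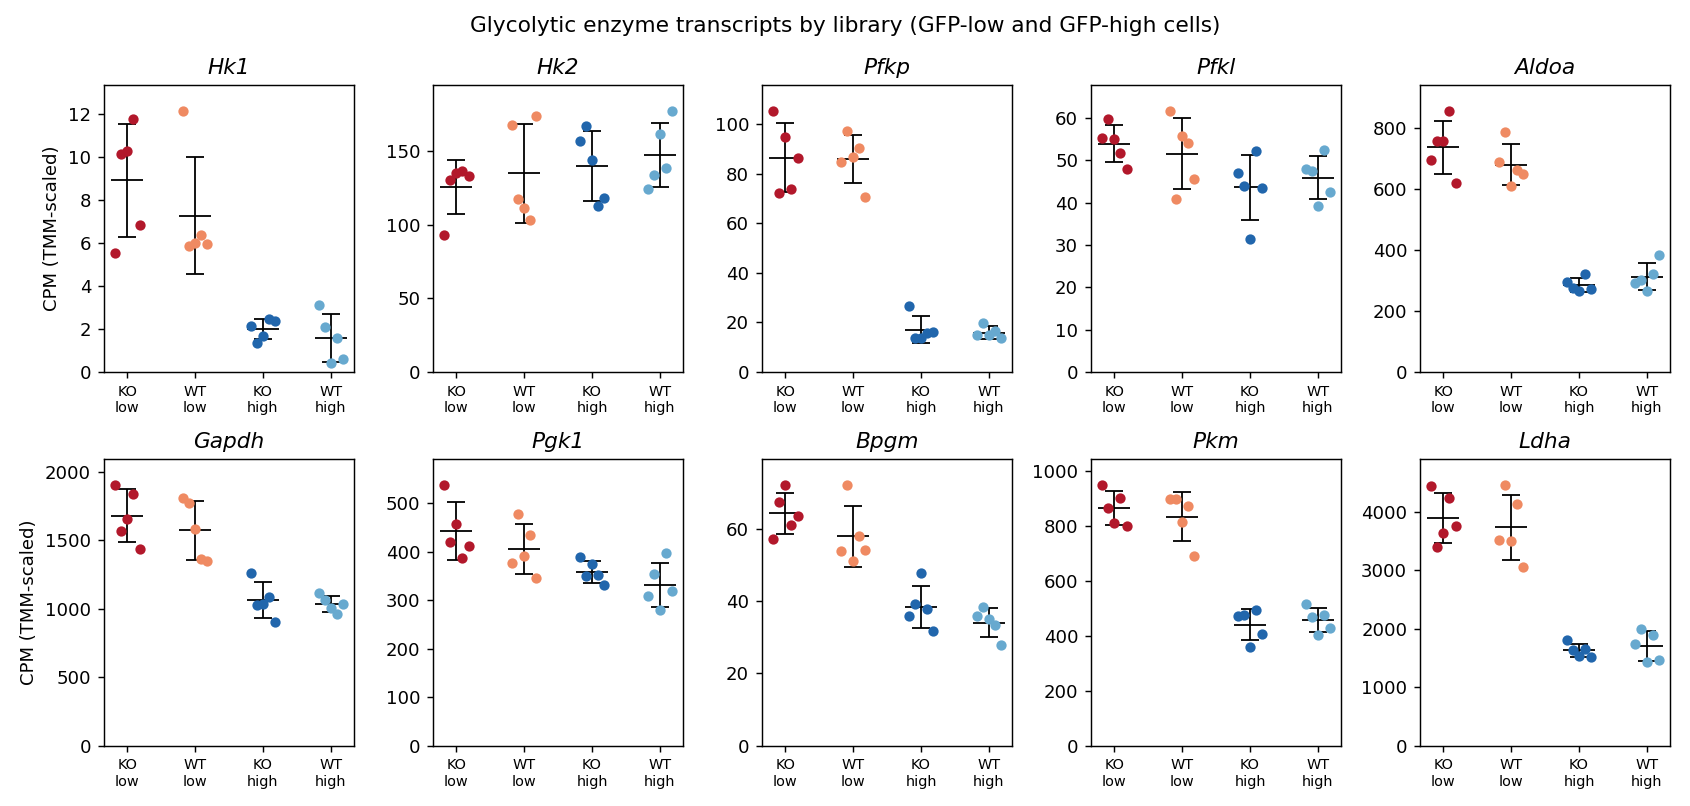
CPM (TMM-scaled, linear axes from 0) of the 10 enzymes in every library; points are libraries, the long black mark is the group mean and the error bar its SD (n = 5). The KO and WT points overlap in every panel within a population, and 7 of the 10 panels show no overlap between GFP-low and GFP-high libraries of the same genotype, where 35.4% of all genes in KO and 28.8% in WT mice show none.

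The first comparison set GFP-low against GFP-high cells within each genotype. Most of the 10 transcripts were higher in GFP-low cells of both genotypes, whereas Hk2 did not pass the test in either. Pfkp and Hk1 led, each at more than 4 times the GFP-high level. The 10 were chosen with earlier results of these data known, so their counts do not stand for the whole pathway. Those of 14 other glycolytic enzymes are given below. By edgeR's quasi-likelihood test with Benjamini-Hochberg adjustment at 0.05, 9 of the 10 rose and 0 fell in KO mice, where 26.2% of 11282 genes rose and 50.5% changed. In WT mice 7 rose and 0 fell, where 22% of 11281 genes rose and 43.4% changed. The members' median log2 fold change was 0.87 in KO and 0.81 in WT mice, beside medians of -0.0086 and -0.015 over all genes tested. Groups of GFP-low and GFP-high libraries did not overlap for 7 members in KO mice and for 7 in WT mice, all of them higher in GFP-low. Over the 11284 genes held by both tables, 35.4% in KO and 28.8% in WT mice did not overlap, and 18.1% in KO and 15% in WT mice did so with GFP-low higher. Per mouse, 8 of the 10 enzymes were higher in the GFP-low library in 5 of 5 KO and 5 of 5 WT mice, where 28.5% of all genes were higher in every KO mouse and 26.5% in every WT mouse.

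The hexokinases moved apart. Hk1, the broadly expressed isozyme that binds mitochondria, had 5.52, 10.1, 10.3, 11.8 and 6.86 CPM in KO GFP-low libraries, against 2.13, 1.34, 1.67, 2.47 and 2.36 CPM in KO GFP-high libraries of mice 2, 3, 4, 5 and 6. In WT mice 1, 3, 6, 7 and 8 it had 12.1, 5.86, 5.99, 6.38 and 5.98 CPM in GFP-low libraries, against 3.14, 2.09, 0.441, 1.56 and 0.589 CPM in GFP-high libraries. All GFP-low libraries lay above all GFP-high libraries, with WT mouse 1 highest in both WT groups. On the log2 scale Hk1 was higher by 2.16 ± 0.24 in KO mice (SE throughout for fold changes, edgeR adjusted p = 7.59e-06) and by 2.22 ± 0.45 in WT mice (edgeR adjusted p = 0.00169). The WT GFP-high libraries of mice 6 and 8 rested on only 11 and 15 counts.

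Hk2, the inducible hexokinase of proliferating and insulin-responsive cells, had 93.2, 131, 135, 136 and 133 CPM in KO GFP-low libraries, against 157, 167, 144, 113 and 118 CPM in KO GFP-high libraries. In WT mice it had 168, 118, 112, 103 and 174 CPM in GFP-low libraries, against 124, 134, 162, 139 and 177 CPM in GFP-high libraries. The groups overlapped, and the GFP-low library was the higher in 2 of 5 KO and 1 of 5 WT mice. The log2 fold change of Hk2 was -0.14 ± 0.13 in KO (95% interval -0.42 to 0.14, edgeR adjusted p = 0.402) and -0.13 ± 0.16 in WT mice (-0.47 to 0.22, edgeR adjusted p = 0.554).

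The phosphofructokinases also differed from each other. Pfkp, the platelet-type isozyme, had 105, 72.3, 94.8, 73.9 and 86.1 CPM in KO GFP-low libraries, against 26.4, 13.6, 13.7, 15.8 and 16.1 CPM in KO GFP-high libraries. In WT mice it had 84.8, 97.0, 86.5, 90.3 and 70.8 CPM in GFP-low libraries, against 15, 19.9, 14.7, 16.4 and 13.6 CPM in GFP-high libraries. The lowest GFP-low library was well above the highest GFP-high library, that of KO mouse 2. Its rise was 5.10-fold in KO (95% interval 3.90 to 6.66, edgeR adjusted p = 3.01e-07) and 5.39-fold in WT mice (4.46 to 6.51, edgeR adjusted p = 1.41e-07).

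Pfkl, the liver-type isozyme, ranged from 48.0 to 59.6 CPM in KO GFP-low and from 40.8 to 61.6 CPM in WT GFP-low libraries, against 31.5 to 52.1 CPM in KO GFP-high and 39.1 to 52.5 CPM in WT GFP-high libraries. The groups overlapped, with the GFP-low library higher in 4 of 5 KO and 4 of 5 WT mice. It rose in KO mice by a log2 fold change of 0.32 ± 0.12 (edgeR adjusted p = 0.0381), and in WT mice the value was 0.17 ± 0.12 (edgeR adjusted p = 0.294). The KO call was not stable to single libraries. The edgeR adjusted p was 0.0578, 0.0900 and 0.0649 without the GFP-low library of KO mouse 2, 3 or 4, and 0.0647, 0.0858 and 0.0658 without the GFP-high library of KO mouse 3, 4 or 6. Without the GFP-high library of KO mouse 4, the log2 fold change of Pfkl was 0.21.

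Aldoa, the aldolase of muscle and most proliferating cells, had 697, 759, 758, 857 and 621 CPM in KO GFP-low libraries, against 295, 275, 266, 321 and 273 CPM in KO GFP-high libraries. In WT mice it had 690, 789, 612, 663 and 650 CPM in GFP-low libraries, against 291, 302, 264, 322 and 384 CPM in GFP-high libraries. No GFP-low library overlapped with a GFP-high library. Aldoa rose 2.61-fold in KO (95% interval 2.25 to 3.01, edgeR adjusted p = 1.79e-07) and 2.18-fold in WT mice (1.83 to 2.59, edgeR adjusted p = 1.49e-05).

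In the triose steps Gapdh rose in both genotypes and Pgk1 in KO mice under TMM scaling. Gapdh, which oxidises glyceraldehyde phosphate, ranged from 1439 to 1907 CPM in KO GFP-low and 1351 to 1807 CPM in WT GFP-low libraries, against 906 to 1266 CPM in KO GFP-high and 966 to 1118 CPM in WT GFP-high libraries. The GFP-low and GFP-high libraries of each genotype did not overlap. Gapdh rose by a log2 fold change of 0.67 ± 0.11 in KO (edgeR adjusted p = 1.62e-04) and 0.60 ± 0.11 in WT mice (edgeR adjusted p = 0.00119).

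Pgk1, which makes ATP from bisphosphoglycerate, ranged from 386 to 537 CPM in KO GFP-low and 345 to 478 CPM in WT GFP-low libraries, against 330 to 388 CPM in KO GFP-high and 281 to 398 CPM in WT GFP-high libraries. The groups overlapped although the GFP-low library was the higher in 5 of 5 KO and 5 of 5 WT mice. The log2 fold change of Pgk1 was 0.31 ± 0.10 in KO (edgeR adjusted p = 0.0146) and 0.29 ± 0.12 in WT mice (edgeR adjusted p = 0.0686). With the mouse as a block, the WT value of Pgk1 was 0.29 and passed (edgeR adjusted p = 0.0170), so that 8 WT members rose. It also passed by DESeq2 (0.29, DESeq2 adjusted p = 0.0468), without the GFP-high library of WT mouse 7 (edgeR adjusted p = 0.0278), and without the GFP-low library of WT mouse 8 (edgeR adjusted p = 0.0452).

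Bpgm ranged from 57.2 to 72.0 CPM in KO GFP-low and 51.1 to 72.1 CPM in WT GFP-low libraries, against 31.7 to 47.6 CPM in KO GFP-high and 27.7 to 38.3 CPM in WT GFP-high libraries. Its groups did not overlap, and it rose by a log2 fold change of 0.75 ± 0.11 in KO (edgeR adjusted p = 7.99e-05) and 0.76 ± 0.12 in WT mice (edgeR adjusted p = 3.02e-04). Of the 6 erythroid markers listed, 0 were among the genes of either table.

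The last steps rose between 1.82-fold and 2.41-fold. Pkm, the pyruvate kinase of most tissues outside liver and red cells, had 950, 865, 812, 903 and 800 CPM in KO GFP-low libraries, against 474, 475, 359, 493 and 406 CPM in KO GFP-high libraries. In WT mice it had 898, 897, 814, 874 and 689 CPM in GFP-low libraries, against 517, 470, 402, 476 and 429 CPM in GFP-high libraries. These groups did not overlap, and the rise was 1.98-fold in KO (95% interval 1.71 to 2.30, edgeR adjusted p = 3.10e-06) and 1.82-fold in WT mice (1.54 to 2.14, edgeR adjusted p = 6.13e-05). Counts per gene do not separate the splice forms of Pkm.

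Ldha, the lactate dehydrogenase subunit that predominates in glycolytic tissue, had 4440, 3398, 3644, 4246 and 3767 CPM in KO GFP-low libraries, against 1802, 1635, 1540, 1656 and 1519 CPM in KO GFP-high libraries. In WT mice it had 3518, 4466, 3502, 4137 and 3054 CPM in GFP-low libraries, against 1741, 2002, 1436, 1904 and 1463 CPM in GFP-high libraries. Every GFP-low library exceeded every GFP-high library. Ldha rose 2.41-fold in KO (95% interval 2.08 to 2.79, edgeR adjusted p = 3.34e-07) and 2.19-fold in WT mice (1.76 to 2.72, edgeR adjusted p = 7.00e-05).

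These changes are relative to the TMM scaling. With library totals in its place, the median of all genes moved to a log2 fold change of -0.27 in KO and -0.37 in WT mice, and the calls split into 1777 higher and 4737 lower genes in KO and 1188 higher and 4892 lower genes in WT mice, beside 2954 higher and 2748 lower in KO and 2478 higher and 2416 lower in WT mice with TMM. The members' median was then 0.61 in KO and 0.45 in WT mice, with 7 members higher in KO, 6 higher in WT and only Hk2 lower in both (-0.41, edgeR adjusted p = 0.00903 in KO; -0.49, edgeR adjusted p = 0.0176 in WT mice). Relative to the median of all genes, Hk2 therefore lay lower by a similar small amount under both scalings. Pfkl and Pgk1 in KO mice and Gapdh in WT mice no longer passed, with edgeR adjusted p-values of 0.741, 0.682 and 0.184. The WT values of Pfkl and Pgk1, which had not passed, became -0.17 and -0.073.

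**Figure D2:**
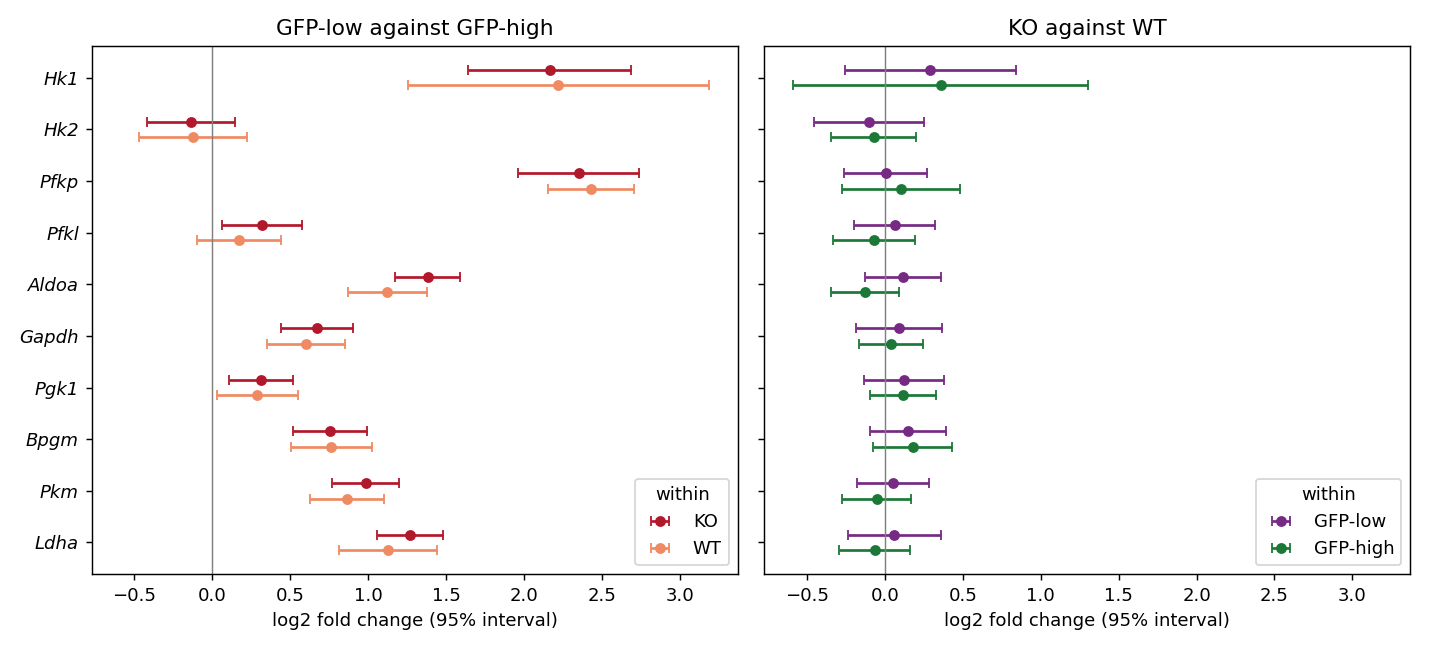
Log2 fold changes (x axis, points) with 95% intervals (bars) from edgeR for GFP-low against GFP-high within each genotype (left) and KO against WT within each population (right), TMM scaling. All left-hand values but those of Hk2 are above 0 under TMM, and with library totals those of Pfkl and Pgk1 in WT mice fall below 0; every right-hand interval includes 0.

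The DNA just upstream of these genes was examined because several glycolytic genes are known targets of the hypoxia-inducible factors, whose response element has the core ACGTG or GCGTG. The windows are RefSeq promoters on GRCm38.p6 that run from 250 bases before to 50 after the transcript start, and all 10 genes matched. The ACGTG form, searched on both strands and therefore also as CACGT, was found in 7 of the 10 genes and in 8 of their 15 windows, beside 19.6% of 32851 windows and 21.8% of 27025 genes in the whole RefSeq table. No ACGTG match was found for Pfkp, Pfkl and Bpgm. The GCGTG form, searched also as CACGC and able to share bases with ACGTG matches, was found in 5 of the 10 genes and in 6 of their 15 windows, beside 32.4% of windows and 35.2% of genes in the whole table. Capitals in the following windows mark the ACGTG matches alone, and CACGTG holds overlapping matches on both strands.

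The Ldha window at chr7:46845554-46845853 (plus strand) and the Pgk1 window at chrX:106186850-106187149 (plus strand) are shown as genes of the later steps with several matches. The Hk2 window at chr6:82774405-82774704 (minus strand) belongs to the member that did not pass between the populations, and the Pfkp window at chr13:6648722-6649021 (minus strand) to the member with the largest fold.
Ldha: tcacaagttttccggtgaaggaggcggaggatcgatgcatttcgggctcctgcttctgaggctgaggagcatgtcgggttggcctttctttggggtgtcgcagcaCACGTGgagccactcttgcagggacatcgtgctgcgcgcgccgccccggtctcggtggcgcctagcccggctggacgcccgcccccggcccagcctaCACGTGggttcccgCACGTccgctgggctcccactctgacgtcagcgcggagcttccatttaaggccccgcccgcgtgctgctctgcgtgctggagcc
Pgk1: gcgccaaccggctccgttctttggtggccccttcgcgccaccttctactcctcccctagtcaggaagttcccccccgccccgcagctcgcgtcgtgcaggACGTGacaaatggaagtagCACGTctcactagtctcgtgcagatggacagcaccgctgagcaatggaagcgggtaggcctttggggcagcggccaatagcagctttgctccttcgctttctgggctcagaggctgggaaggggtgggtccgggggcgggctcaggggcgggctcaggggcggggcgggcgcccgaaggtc
Hk2: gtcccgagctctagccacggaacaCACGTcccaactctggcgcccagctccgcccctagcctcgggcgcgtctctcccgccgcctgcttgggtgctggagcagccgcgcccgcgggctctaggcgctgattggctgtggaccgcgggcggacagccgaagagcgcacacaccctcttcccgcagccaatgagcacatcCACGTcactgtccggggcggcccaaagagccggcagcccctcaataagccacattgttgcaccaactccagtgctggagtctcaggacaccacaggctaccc
Pfkp: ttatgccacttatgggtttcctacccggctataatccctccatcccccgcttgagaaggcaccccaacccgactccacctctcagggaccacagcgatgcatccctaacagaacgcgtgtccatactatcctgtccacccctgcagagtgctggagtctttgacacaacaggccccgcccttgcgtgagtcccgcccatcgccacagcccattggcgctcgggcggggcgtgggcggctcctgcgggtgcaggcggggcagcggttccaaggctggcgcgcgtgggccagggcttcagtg
The Ldha window shown held 5 ACGTG matches in 3 stretches and the Pgk1 and Hk2 windows 2 each, and the Pfkp window held 0. Of GCGTG matches, the Pfkp window held 4, the Ldha window shown 2 and the Pgk1 and Hk2 windows 0. The other Ldha window, at chr7:46846832-46847131, held 0 ACGTG and 2 GCGTG matches. The members' windows had 51.3% to 67.3% GC, and the whole table was not matched to them for GC. A match is a description of the sequence only, and these windows say nothing of the factors.

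Isozyme shares of a step were then computed from CPM per kilobase. In the hexokinase step, Hk2 made up 61.6% ± 7.75 of the transcripts in KO GFP-low and 60.0% ± 11.1 in WT GFP-low cells, against 90.1% ± 2.70 in KO GFP-high and 91.0% ± 2.51 in WT GFP-high cells (SD, n = 5). Most of the remainder was Hkdc1, a hexokinase-like enzyme expressed in gut epithelium, with 35.4% ± 8.29 in KO GFP-low and 37.7% ± 11.4 in WT GFP-low cells, against 8.95% ± 2.50 in KO GFP-high and 8.30% ± 2.28 in WT GFP-high cells. Hk1 held 3.04% in KO GFP-low and 2.27% in WT GFP-low cells, against 0.942% in KO GFP-high and 0.734% in WT GFP-high cells. With the length of the longest transcript the Hk1 share was 4.89% in KO GFP-low and 3.65% in WT GFP-low cells, against 1.67% in KO GFP-high and 1.3% in WT GFP-high cells. The Hk2 share was then 53.7% in KO GFP-low and 52.5% in WT GFP-low cells, against 86.75% in KO GFP-high and 87.9% in WT GFP-high cells. That of Hkdc1 was 41.4% in KO GFP-low and 43.9% in WT GFP-low cells, against 11.6% in KO GFP-high and 10.8% in WT GFP-high cells. Hkdc1 itself rose by a log2 fold change of 2.40 ± 0.19 in KO (edgeR adjusted p = 4.56e-07) and 2.65 ± 0.24 in WT mice (edgeR adjusted p = 5.05e-06).

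In the phosphofructokinase step, Pfkp made up 37.9% ± 4.07 in KO GFP-low and 39.6% ± 4.59 in WT GFP-low cells, against 11.9% ± 3.06 in KO GFP-high and 10.8% ± 1.26 in WT GFP-high cells. Pfkl was the largest in every group, with 47.8% in KO GFP-low and 47.5% in WT GFP-low cells, against 60.7% in KO GFP-high and 62.5% in WT GFP-high cells. The muscle-type isozyme Pfkm made up the rest. Of pyruvate kinase transcripts, Pkm held 94.1% in KO GFP-low and 94.3% in WT GFP-low cells, against 95.7% in KO GFP-high and 95.5% in WT GFP-high cells, the rest being the liver and red cell isozyme Pklr. Ldha held 99.9% of Ldha and Ldhb transcripts in both GFP-low groups, against 99.1% in both GFP-high groups.

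**Figure D3:**
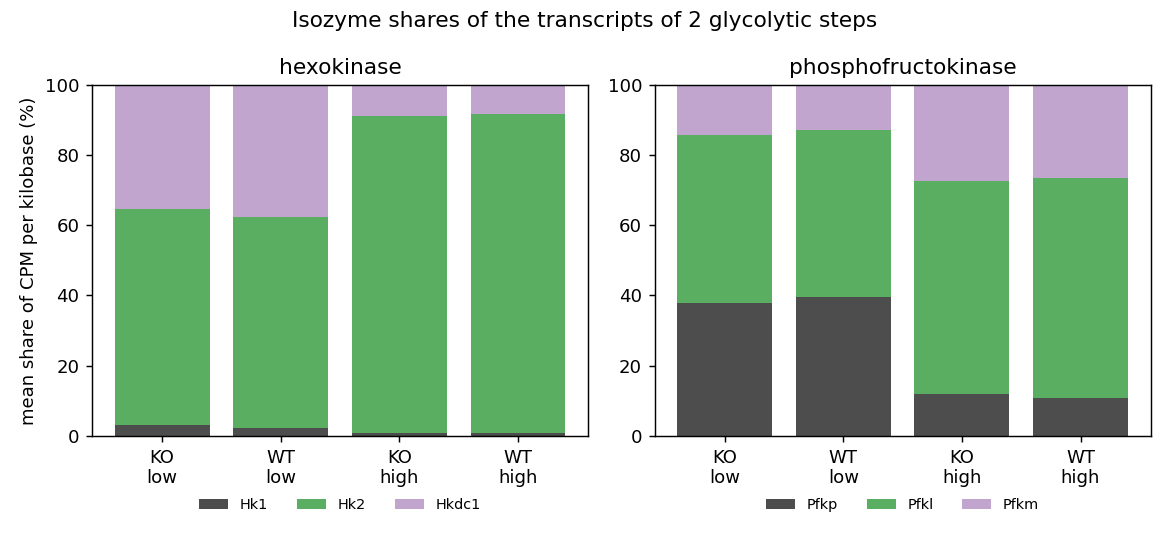
Mean share (y axis, %, n = 5 libraries) of each isozyme in the summed CPM per kilobase of the hexokinase and phosphofructokinase steps, as stacked bars for the 4 groups. The Hk2 segment is near 60% in the GFP-low groups and near 90% in the GFP-high groups, and the Pfkp segment is near 38% to 40% in the GFP-low and near 11% to 12% in the GFP-high groups. Lengths are those of merged exons. With the longest transcript Hk2 holds 53.7% in KO GFP-low and 52.5% in WT GFP-low cells.

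Ratios of counts within a library, which do not depend on library scaling, were tested by two-sided exact permutation of 5 against 5 libraries. The smallest possible p was 0.00794, and adjustment ran over all 12 tests of 3 pairs. Pfkp over Pfkl was 1.21 to 1.90 in KO GFP-low and 1.38 to 2.38 in WT GFP-low libraries, against 0.304 to 0.562 in KO GFP-high and 0.313 to 0.421 in WT GFP-high libraries. The mean log2 ratio was thus higher in GFP-low cells by 2.05 in KO and 2.28 in WT mice (exact permutation p = 0.00794, adjusted p = 0.0159 in each). Count ratios are not corrected for gene length, so a value above 1 does not make Pfkp the larger isozyme. Per kilobase Pfkl had the higher mean in every group. Hk2 over Hk1 was 11.6 to 19.4 in KO GFP-low and 13.8 to 29.1 in WT GFP-low libraries, against 45.6 to 124 in KO GFP-high and 39.7 to 367 in WT GFP-high libraries, with differences of -2.29 in KO and -2.66 in WT mice (exact permutation p = 0.00794, adjusted p = 0.0159 in each). Ldha over Ldhb, the subunit of heart and other oxidative tissues, was 1301 to 5574 in KO GFP-low and 929 to 3892 in WT GFP-low libraries. It was 151 to 342 in KO GFP-high and 133 to 340 in WT GFP-high libraries. The GFP-low ratios rested on only 19 to 57 Ldhb counts in KO and 13 to 85 in WT libraries. The mean log2 ratio was higher in GFP-low cells by 3.54 in KO and 3.14 in WT mice (exact permutation p = 0.00794, adjusted p = 0.0159 in each). Within mice, sign flips over 5 animals cannot give a p below 0.0625, so none of these could pass in that form.

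None of the 3 ratios passed between genotypes. Hk2 over Hk1 differed between KO and WT libraries by -0.39 in GFP-low cells (exact permutation p = 0.127, adjusted p = 0.218) and by -0.76 in GFP-high cells (exact permutation p = 0.318, adjusted p = 0.476) on the log2 scale. Pfkp over Pfkl differed by -0.07 in GFP-low and 0.15 in GFP-high cells, with exact permutation p = 0.690 and 0.516. Ldha over Ldhb differed by 0.42 in GFP-low and 0.014 in GFP-high cells, with exact permutation p = 0.429 and 0.976.

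**Figure D4:**
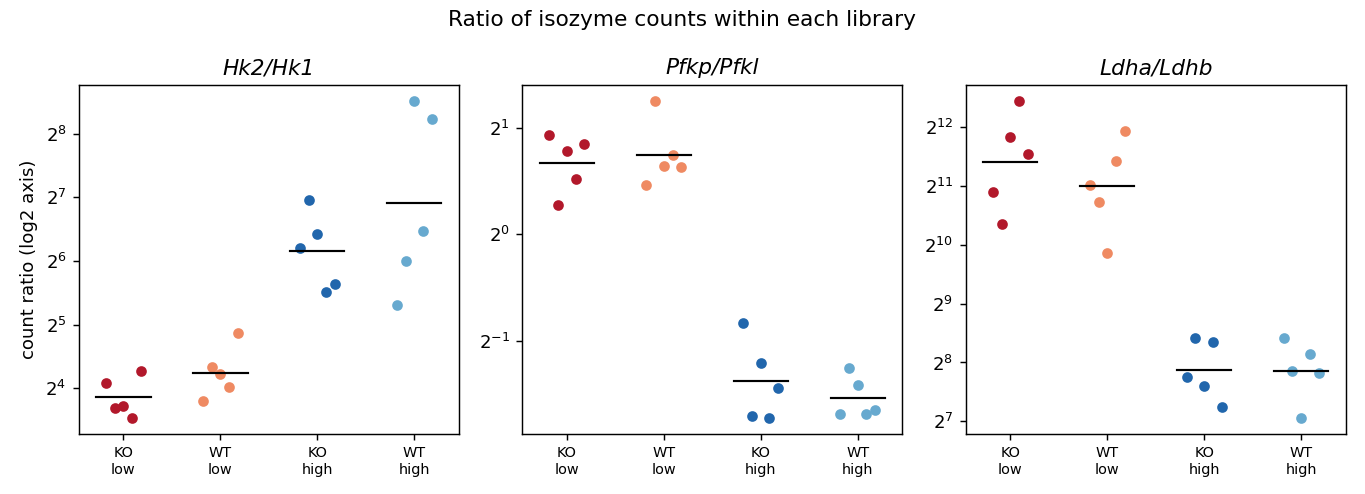
Count ratio of 3 isozyme pairs (y axis, log2-scaled) in every library of the 4 groups; points are libraries and lines are geometric means (n = 5). Pfkp over Pfkl lies above 1 in all GFP-low and below 0.57 in all GFP-high libraries. The ratios are not corrected for gene length, and per kilobase Pfkl had the higher mean in every group.

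The neighbouring pathways were described with 6 lists. Of all genes tested, 26.2% rose and 24.4% fell in KO mice under TMM, and 22% rose and 21.4% fell in WT mice. Of 14 other glycolytic enzymes tested between populations, 9 rose and 1 fell in KO mice (median log2 fold change 0.38), and 6 rose and 2 fell in WT mice (median 0.27). The rises included Hkdc1, Pklr at 1.47 ± 0.13 in KO and 1.25 ± 0.13 in WT mice, and the enolase Eno1 at 0.61 ± 0.08 in KO and 0.51 ± 0.13 in WT mice. Ldhb fell by 2.17 ± 0.33 in KO and by 1.85 ± 0.35 in WT mice on the log2 scale, opposite to Ldha, although at under 11 CPM in every library. With library totals the split became 5 rises and 4 falls in KO and 3 rises and 4 falls in WT mice.

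Of 14 genes for sugar and lactate transport and for the control of phosphofructokinase, 11 rose and 0 fell in KO mice (median 0.71), and 9 rose and 0 fell in WT mice (median 0.66). The risers made up 78.6% in KO and 64.3% in WT mice under TMM, beside 26.2% and 22% of all genes tested. With library totals, 8 rose and 1 fell in KO mice, and 3 rose and 1 fell in WT mice. Slc2a5, the fructose transporter of the gut, averaged 33.1 ± 4.51 CPM in KO GFP-low and 37.2 ± 4.80 CPM in WT GFP-low libraries, against 7.85 ± 1.68 CPM in KO GFP-high and 8.13 ± 0.727 CPM in WT GFP-high libraries. It rose by a log2 fold change of 2.09 ± 0.16 in KO (edgeR adjusted p = 2.31e-07) and 2.19 ± 0.12 in WT mice (edgeR adjusted p = 1.41e-07). Khk, which phosphorylates fructose, rose by 1.41 ± 0.12 in KO and 1.30 ± 0.14 in WT mice. Pfkfb3, which makes the main activator of phosphofructokinase, rose by 1.41 ± 0.24 in KO and 1.47 ± 0.39 in WT mice. Its levels were low, with means of 3.65 CPM in KO and 4.23 in WT GFP-low cells, against 1.38 in KO and 1.53 in WT GFP-high cells. Its isozyme Pfkfb4 had means of 27.85 CPM in KO and 21.5 in WT GFP-low cells, against 16.55 in KO and 16.3 in WT GFP-high cells. The glucose transporter Slc5a1 rose by 0.69 ± 0.09 in KO and 0.64 ± 0.17 in WT mice. The lactate and pyruvate carrier Slc16a1 did not pass, with 0.12 ± 0.09 in KO and 0.03 ± 0.12 in WT mice.

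Other routes of glucose carbon gave mixed counts. Under TMM, risers made up 28.6% of the gluconeogenesis genes in each genotype. They made up 25% of the pyruvate entry genes in KO and 16.7% in WT mice. These shares lay near those of all genes tested, 26.2% in KO and 22% in WT mice. Of 7 gluconeogenesis genes, 2 rose and 3 fell in KO mice, and 2 rose and 2 fell in WT mice; with library totals 2 rose and 4 fell in KO, and 1 rose and 3 fell in WT mice. The cytosolic enzyme Pck1 rose by a log2 fold change of 2.85 ± 0.19 in KO and 2.27 ± 0.29 in WT mice, whereas its mitochondrial counterpart Pck2 fell by 1.11 ± 0.11 in KO and by 1.05 ± 0.14 in WT mice. Slc37a4, the transporter of glucose phosphate into the endoplasmic reticulum, rose by 0.86 ± 0.11 in KO and 0.69 ± 0.12 in WT mice. Of 12 genes for the entry of pyruvate into mitochondria, 3 rose and 1 fell in KO mice, and 2 rose and 0 fell in WT mice; with library totals 1 rose and 3 fell in each genotype. The pyruvate carrier subunits Mpc1 (0.29 ± 0.08 in KO, 0.23 ± 0.09 in WT mice) and Mpc2 (0.90 ± 0.23 in KO, 1.24 ± 0.40 in WT mice) rose in both. Of the pyruvate dehydrogenase subunits, Pdhb rose by 0.41 ± 0.08 and Pdha1 fell by 0.22 ± 0.08 in KO mice, and in WT mice their values of 0.26 ± 0.11 and -0.21 ± 0.09 did not pass. Of 8 pentose phosphate pathway genes, 3 rose in KO and 1 in WT mice with 0 falls under TMM; with library totals 1 rose and 2 fell in KO, and 0 rose and 2 fell in WT mice. The rises were led by Pgd, the phosphogluconate dehydrogenase, at 1.0 ± 0.08 in KO and 0.70 ± 0.10 in WT mice. G6pdx, the glucose phosphate dehydrogenase, and its endoplasmic reticulum counterpart H6pd rose in KO mice, by 0.38 ± 0.08 and 0.54 ± 0.18, and in WT mice had 0.04 ± 0.10 and 0.21 ± 0.19. The transketolase Tkt and the epimerase Rpe did not pass, with -0.05 ± 0.08 and 0.06 ± 0.10 in KO and -0.22 ± 0.10 and 0.19 ± 0.12 in WT mice. The shares of risers under TMM, 37.5% in KO and 12.5% in WT mice, lay on either side of those of all genes.

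Of 18 hypoxia-inducible factors, their regulators and their targets outside glycolysis, 7 rose and 3 fell in KO mice (median 0.14), and 6 rose and 3 fell in WT mice (median 0.11). With library totals, 5 rose and 6 fell in KO mice (median -0.12), and 2 rose and 5 fell in WT mice (median -0.25), so the balance depends on the scaling. Ndrg1, a hypoxia-responsive differentiation gene, rose by a log2 fold change of 1.87 ± 0.17 in KO and 1.29 ± 0.14 in WT mice. Higd1a, which encodes a hypoxia-induced protein of the inner mitochondrial membrane, rose by 0.59 ± 0.09 in KO and 0.79 ± 0.12 in WT mice. Epas1, which encodes the HIF-2 alpha subunit, rose by 0.96 ± 0.20 in KO and 0.97 ± 0.25 in WT mice. Hif1a, which encodes the HIF-1 alpha subunit, did not pass, with 0.15 ± 0.17 in KO and 0.11 ± 0.15 in WT mice. The targets Mxi1 and Kdm3a fell, Mxi1 by 0.50 ± 0.13 in KO and by 0.43 ± 0.12 in WT mice, and Kdm3a by 0.37 ± 0.13 in KO and by 0.34 ± 0.11 in WT mice. The list thus held members moving both ways. Its risers made up 38.9% in KO and 33.3% in WT mice under TMM, beside 26.2% and 22% of all genes tested. Its fallers made up 16.7% in each genotype, beside 24.4% in KO and 21.4% in WT mice.

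The second comparison set KO against WT mice within each population. None of the 10 enzymes passed in either population, and every member's KO and WT libraries overlapped, where 1.14% of 11284 genes in GFP-low and 1.88% in GFP-high cells did not. By edgeR's quasi-likelihood test, 0 of 10 members were called in GFP-low cells, where 0.00849% of 11778 genes were called (Arhgef10, lower in KO), and 0 of 10 in GFP-high cells, where 0% of 11745 genes were called. At an unadjusted p under 0.05 the counts were 0 members in each population, beside 744 genes in GFP-low and 1150 genes in GFP-high cells. DESeq2 called 0 members in each population, beside 12 genes in GFP-low and 145 genes in GFP-high cells.

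In GFP-low cells the members' median log2 fold change was 0.079, beside -0.0035 over all genes, and values ran from -0.10 ± 0.16 for Hk2 to 0.29 ± 0.26 for Hk1. The smallest edgeR adjusted p was 0.867, for Bpgm at 0.15 ± 0.11. In GFP-high cells the median was -0.0053, beside 0.0056 over all genes, and values ran from -0.12 ± 0.10 for Aldoa to 0.36 ± 0.44 for Hk1. The smallest edgeR adjusted p there was 0.668, for Bpgm at 0.18 ± 0.12. The 95% intervals show what the data leave possible. Ldha in KO mice was 1.04 times the WT level in GFP-low cells (0.848 to 1.28) and 0.957 times in GFP-high cells (0.818 to 1.12). For members other than Hk1, the intervals of the fold stayed between 0.730 and 1.32 in GFP-low cells and between 0.788 and 1.40 in GFP-high cells. Hk1, the least abundant, had the widest, from 0.836 to 1.79 in GFP-low and from 0.666 to 2.47 in GFP-high cells.

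By edgeR 0 of 76 genes of the 6 pathway lists passed between genotypes in GFP-low and 0 of 73 in GFP-high cells, with 6 and 12 of them at an unadjusted p under 0.05. DESeq2 called 0 of them in GFP-low and 3 in GFP-high cells, Pgam1, Ndrg1 and Ddit4, all lower in KO, so these calls depend on the tool. The nearest among the other glycolytic enzymes was Pgam1, the phosphoglycerate mutase, in GFP-high cells, where it averaged 155 ± 20.4 CPM in KO and 214 ± 25.2 CPM in WT libraries (log2 fold change -0.46 ± 0.11, edgeR adjusted p = 0.181, DESeq2 adjusted p = 0.0125). These KO and WT libraries did not overlap, the highest KO library having 176 CPM and the lowest WT library 177 CPM. In GFP-low cells Pgam1 averaged 293 ± 58.3 CPM in KO and 293 ± 47.0 CPM in WT libraries. Ndrg1 in GFP-high cells averaged 35.0 ± 8.12 CPM in KO and 52.4 ± 2.62 CPM in WT libraries (-0.58 ± 0.13, edgeR adjusted p = 0.167, DESeq2 adjusted p = 0.00764). Ddit4, a stress-induced inhibitor of mTORC1 signalling, averaged 27.7 ± 9.06 CPM in KO and 45.7 ± 11.8 CPM in WT libraries of GFP-high cells (-0.71 ± 0.22, edgeR adjusted p = 0.262, DESeq2 adjusted p = 0.0483).

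The difference between the genotype effects in GFP-low and GFP-high cells was fitted over all 20 libraries. Of the 10 members 0 passed, where 0% of 11284 genes did by edgeR, 353 genes had an unadjusted p under 0.05 and DESeq2 called 0. The largest member value was that of Aldoa, whose KO minus WT difference was higher in GFP-low cells by 0.25 ± 0.15 on the log2 scale (95% interval -0.06 to 0.55). The population difference of Pfkp had an interaction of -0.09 ± 0.23 and that of Hk1 -0.07 ± 0.52. The count of 9 risers in KO and 7 in WT mice is therefore not a tested difference between the genotypes.

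The members also varied within groups. Summed over the 10 enzymes, libraries held 7347 to 8848 CPM in KO GFP-low and 6441 to 8733 CPM in WT GFP-low cells, against 3646 to 4493 CPM in KO GFP-high and 3641 to 4432 CPM in WT GFP-high cells. The GFP-low library of KO mouse 2 was the highest of its group for 5 members and the lowest for 3, among them Hk2. The GFP-high library of WT mouse 6 was the lowest of its group for 6 members. Deviations from the group means over the 20 libraries, which share mice and scaling, had a Pearson r of 0.736 for Ldha with Pgk1, 0.688 for Ldha with Pkm and -0.546 for Ldha with Hk2.

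Among all genes, those whose deviations were most like a member's were Sdhb, a subunit of respiratory complex II, for Ldha (r = 0.871), the cytosolic malate dehydrogenase Mdh1 (r = 0.887) after Bche (r = 0.890) for Pgk1, and the lipid peroxidase Gpx4 for Gapdh (r = 0.883). For Pfkp it was the trehalase Treh (r = 0.877), and for Hk2 the near-identical copies Entpd4 and Entpd4b (r = 0.863 each), whose reads cannot be told apart with certainty. These are the highest of many correlations over 20 libraries from 10 mice and are given as a description.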

How the data were processed

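The authors deposited tables of expected counts per gene, 1 for GFP-low and 1 for GFP-high libraries, with no normalization visible in the column totals. Aligners TopHat2 and Bowtie2 and the counter RSEM, with build mm10, are named per the submitters' processing notes, without versions or order, and strand is not given in the sources read. The lowest mean count of an entry was 16.8 in the GFP-low and 17.0 in the GFP-high table, so weaker genes are not analysed here. RSEM divides reads shared between genes, and Pfkp and Gapdh had non-whole values in every library. Of all values 13.7% were not whole, and expected counts were rounded.

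Tests used edgeR 4.0.16 in R 4.3.3 (quasi-likelihood, TMM, filterByExpr with a minimum count of 10, Benjamini-Hochberg over all genes tested, threshold 0.05), run on simulated counts beforehand. In those counts the KO against WT test found 0% of 1.25-fold and 20% of 1.5-fold changes in GFP-low cells. In GFP-high cells it found 10% and 52%. It found 80% of 2-fold changes in each population, so small differences between genotypes could go uncalled. DESeq2 1.42.0, RLE factors, library totals, no filter, replicate blocks and leaving out each library, or each mouse for the interaction, were alternatives. Intervals are 95% intervals of edgeR's fold changes. Ratios were tested with scipy 1.17.1, with p-values adjusted over the pairs shown; a further planned pair is not reported here. Lengths and positions came from GENCODE M21 (GRCm38, that is mm10); Aldoa has 2 annotation entries, and the one overlapping RefSeq's gene was used. In that annotation Ldha lies at chr7:46841475-46855627, Pfkp at chr13:6579768-6648777, Hk1 at chr10:62268855-62379908, Hk2 at chr6:82725025-82774454 and Aldoa at chr7:126795234-126800751.

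All 10 enzymes and the 3 smallest p-values of each list in each comparison were to be named. This was followed between populations; between genotypes and for the interaction, where no list gene passed by edgeR, only list genes called by another fit were named. Other list genes were named after their values were seen. The members and lists were chosen with earlier results of these data known. The 2 libraries of a mouse deviated together (r = 0.169 to 0.625 for 10 mice, each correlating best with its own partner), so the mouse pairs the populations. The main tests did not use this pairing, and the mouse entered only as the block alternative. No 2 libraries of the same group were alike within counting noise, and libraries of different groups were not compared in this way.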

Additional observations from a re-analysis of the deposited data

Results flagged for a closer look

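Within the 40 sets of 5 libraries (10 enzymes in 4 groups), 3 held a library far from the other 4, and chance alone gives about 1 such set in 20. Hk1 had 12.14 CPM in the GFP-low library of WT mouse 1, against 5.86 to 6.38 CPM in the other WT GFP-low libraries. Hk2 had 93.21 CPM in the GFP-low library of KO mouse 2, against 130.6 to 136.3 CPM in the other KO GFP-low libraries. Pfkp had 26.44 CPM in the GFP-high library of KO mouse 2, against 13.55 to 16.09 CPM in the other KO GFP-high libraries. Without that library, the log2 fold change of Pfkp between GFP-low and GFP-high cells of KO mice was at its highest, 2.56.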

How the results depend on the processing

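The counts of members called stayed within 1.5 times of the reported ones under every alternative run, and rises of Hk1, Pfkp, Aldoa, Bpgm, Pkm and Ldha between populations passed under every alternative in both genotypes. Calls of Pfkl, Pgk1, Gapdh and Hk2 that changed are given above; for these and the following values the cause was not tested. With the mouse as replicate block no other member call changed. Between genotypes, where the shared replicate numbers 3 and 6 (same-number r of -0.105 to -0.0768) do not pair mice, 36 and 122 genes were called with the block in GFP-low and GFP-high cells, and 12 and 145 by DESeq2. Of the pathway lists, that block called Slc2a2 in GFP-low (-1.69, edgeR adjusted p = 0.0377) and Ndrg1 in GFP-high cells (-0.87, edgeR adjusted p = 0.0007045). Leaving out a library gave 1 to 2 genes in GFP-low (2 without KO mouse 4) and 0 to 1 in GFP-high cells (1 without KO mouse 2). The isozyme ratios that passed kept an unadjusted exact permutation p under 0.05 whichever library was left out. Their groups did not overlap, so this outcome was fixed in advance and adds no support. Between genotypes, Hk2 over Hk1 in GFP-low cells was -0.49 without KO mouse 6, with an unadjusted exact permutation p = 0.0476; no other genotype ratio came under 0.05.

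Sign changes, apart from that of Pgk1 in WT mice, concerned values that passed in no fit run. In KO against WT GFP-low cells with the replicate block, the log2 fold change of Hk2 was 0.21, Pfkp -0.21, Aldoa -0.011, Gapdh -0.15, Pgk1 -0.052, Pkm -0.032 and Ldha -0.14. There Hk2 was 0.048 with library totals, and Pfkp -0.000296 with RLE factors and -0.000352 by DESeq2. In GFP-high cells with the block, Pfkp was -0.21, Pfkl 0.030, Gapdh -0.092, Bpgm -0.049 and Pkm 0.023. The WT population differences of Pfkl and Pgk1 were -0.17 and -0.073 with library totals. The interactions of Hk1, Hk2, Pfkp and Bpgm were 0.015, 0.078, 0.020 and 0.10 with library totals, and that of Hk2 was 4.8e-05 with the replicate block. Leaving out single libraries, KO against WT in GFP-low cells spanned -0.068 to 0.065 for Pfkp, -0.016 to 0.13 for Pfkl, -0.016 to 0.079 for Pkm and -0.011 to 0.13 for Ldha. In GFP-high cells it spanned -0.15 to 0.0049 for Hk2, -0.10 to 0.20 for Pfkp, -0.14 to 0.025 for Pfkl, -0.026 to 0.095 for Gapdh and -0.095 to 0.012 for Pkm. Leaving out whole mice, the interaction spanned -0.26 to 0.10 for Hk1, -0.13 to 0.12 for Hk2, -0.20 to 0.040 for Pfkp, -0.034 to 0.054 for Pgk1 and -0.081 to 0.022 for Bpgm. With single libraries left out, differences of log2 ratios between genotypes spanned -0.15 to 0.052 for Pfkp over Pfkl in GFP-low and -0.19 to 0.17 for Ldha over Ldhb in GFP-high cells.

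Hk1 rests on 11 to 15 counts in the lowest libraries, so its values are the least precise.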
